A study of Mus musculus with 12 samples.

Results

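The 3′ untranslated region (3′UTR) is the stretch of an mRNA between the stop codon and the poly(A) tail. The peaks described here are the m6A peaks that lay in this stretch in mouse heart. N6-methyladenosine (m6A) is a methyl mark on adenosine in RNA, and a peak is an exonic interval in which fragments pulled down with an antibody against m6A were more frequent than in the input RNA of the same heart. A peak was taken as a 3′UTR peak when its middle, counted over its exon blocks, fell more than 100 nt after the stop codon, in spliced coordinates, on the annotated mRNA of that gene whose coding sequence is longest (GENCODE M21 on GRCm38). This held for 6445 of 41694 peaks (15.5%), in 1924 genes. Of all peaks, 34235 could be placed on that transcript, 5635 (13.5%) had their middle elsewhere in the gene, and 1824 belonged to genes with no coding transcript.

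The hearts came from C57BL/6 mice, a young group of 6 to 7 weeks and an aged group of 26 to 27 months, with 3 hearts per group and no treatment or genetic change in either. Per the methods, all mice were male. The series lists 3 mice per group, whereas one passage of the methods describes hearts being pooled into samples, so it is not settled whether a list stands for 1 heart or a pool. Every p-value over hearts below measures the spread between these lists. Each immunoprecipitate with its input gave 1 peak list (12 libraries, 6 lists), and the lists hold no read counts. The depth is therefore unknown, a missing peak is not shown to be a missing mark, and a weaker mark, fewer transcripts and fewer cells that make them cannot be told apart in whole heart. Peaks were found on 6 to 8 of 10 cardiomyocyte markers and on 5 or 6 of 7 endothelial markers in each list, and on 0 of 5 adipocyte and 0 of 6 skeletal muscle markers. They were found on 1 to 4 of 8 fibroblast, 2 to 5 of 6 smooth muscle and pericyte and 1 to 3 of 7 immune markers, and the highest of each of these numbers was in an aged heart.

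As background, m6A is written on nuclear RNA by a methyltransferase complex with METTL3 and METTL14 at its core, removed by FTO and ALKBH5, and bound by YTH-domain proteins. The complex prefers an adenosine that follows G and precedes C, and GGAC is the most common form of that site. In mammalian mRNA the mark is known to gather near stop codons and in long last exons. The 3′UTR also holds the binding sites of microRNAs and of proteins that set the stability, translation and place of an mRNA, and it ends with a poly(A) signal, often AATAAA.

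Sequences were read from the GENCODE M21 transcripts for the 3′UTR regions with the best peaks and for some genes of calcium handling, cardiac transcription and the aged hearts. A region is a set of peaks of any heart that share exon bases on the same strand. The first set shows 25 bases around the GGAC nearest the middle of the region, with GGAC in capitals, to show the letters the methyltransferase prefers. These GGAC lay from -210 nt (Zbtb20) to 118 nt (Cdh5) from the median peak middle, where negative is upstream. None of them is shown to be a methylated site. Coordinates are of GRCm38, and each sequence reads 5′ to 3′ on the transcribed strand.
Zbtb20, chr16:43635478-43635502, plus strand: aaattaacaaGGACagctcaaaatg
Rnf150, chr8:83088251-83088275, plus strand: ttttgggagaGGACggaggagcagg
Glg1, chr8:111157413-111157437, minus strand: ggtgtcagcaGGACttggaggagcg
Cdh5, chr8:104143649-104143673, plus strand: cacccagggaGGACtgtggagacca
Atp11a, chr8:12867103-12867127, plus strand: ccgggtgtggGGACactctcctgca
Ryr2, chr13:11554267-11554291, minus strand: cagtctcagaGGACctgactgttct
Casq2, chr3:102145618-102145642, plus strand: cacactgcagGGACagaaggggagt
Gata4, chr14:63200056-63200080, minus strand: tgcctgtccaGGACagacacataat
Plpp3, chr4:105232176-105232200, plus strand: cagtagacaaGGACccttctactga
Hpcal1, chr12:17791446-17791470, plus strand: cggcccttaaGGACaccagacagga

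Other regions with peaks just as highly ranked held no GGAC at all. The second set shows, for these, the 25 bases of the region with the most pyrimidines (C or T), with the longest unbroken run of pyrimidines in capitals. It was added after the values were seen, because pyrimidine tracts turned out to be frequent among the best-ranked 3′UTR peaks. The window was taken as the most pyrimidine-rich of its region, so a high count is partly set by that choice. Several regions of the first set held such a tract beside their GGAC, and 1 of them, in Zbtb20, is shown last.
Zbtb20, chr16:43629943-43629967, plus strand: ttttaccctcaCTTCTTTCTTCTTC
Pcp4l1, chr1:171174338-171174362, minus strand: cccttctaCTTCCTCTCTCCCCTCC
Gpatch8, chr11:102477878-102477902, minus strand: agCCTCCTTCCTCCCTCTactttct
Hlf, chr11:90340398-90340422, minus strand: TTTCCTCCCCTTCCTTCTCCCTTCC
Des, chr1:75367297-75367321, plus strand: tcatcgCCCTTCCCCTTCCaccttt
Zbtb20, region with GGAC, chr16:43635557-43635581, plus strand: TCTTTCCTCCCCCCTTCCTCCCTTC

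Young hearts had 989, 971 and 529 peaks in the 3′UTR, and aged hearts had 1380, 1547 and 1029. The ages did not overlap, with 830 ± 261 peaks in young and 1319 ± 264 in aged hearts (mean ± SD, n = 3 each). The difference of 489 peaks reached the smallest p that 3 against 3 hearts allow (two-sided exact permutation test, p = 0.1, adjusted p = 0.35 over 7 comparisons of the ages). Genes with a 3′UTR peak likewise numbered 831, 826 and 469 in young and 1091, 1179 and 855 in aged hearts, 333 more on average (exact permutation p = 0.1, adjusted p = 0.35). Without young replicate 3, the shortest list, the difference was 213 genes (exact permutation p = 0.2). Among peaks with p at or under 1e-05 it was 192 genes (exact permutation p = 0.3) and 247 peaks (exact permutation p = 0.1). The whole lists were longer in aged hearts too, with 4114 to 6505 peaks in young and 7284 to 9367 in aged hearts, again without overlap.

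The share of placed peaks that lay in the 3′UTR did not follow age. It was 18.3, 22.5 and 15.3% in young and 18.6, 20.5 and 16.9% in aged hearts. The mean difference was 0.00798 percentage points (exact permutation p = 1), against an SD of 3.61 points among the young hearts. When the 4114 best-ranked peaks of each heart were used, which makes all lists as long as the shortest, the number of genes with a 3′UTR peak changed sign, with a difference of -46.3 genes (aged minus young, exact permutation p = 0.5). The higher numbers in aged hearts were therefore not separable from the length of the lists.

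**Figure D1:**
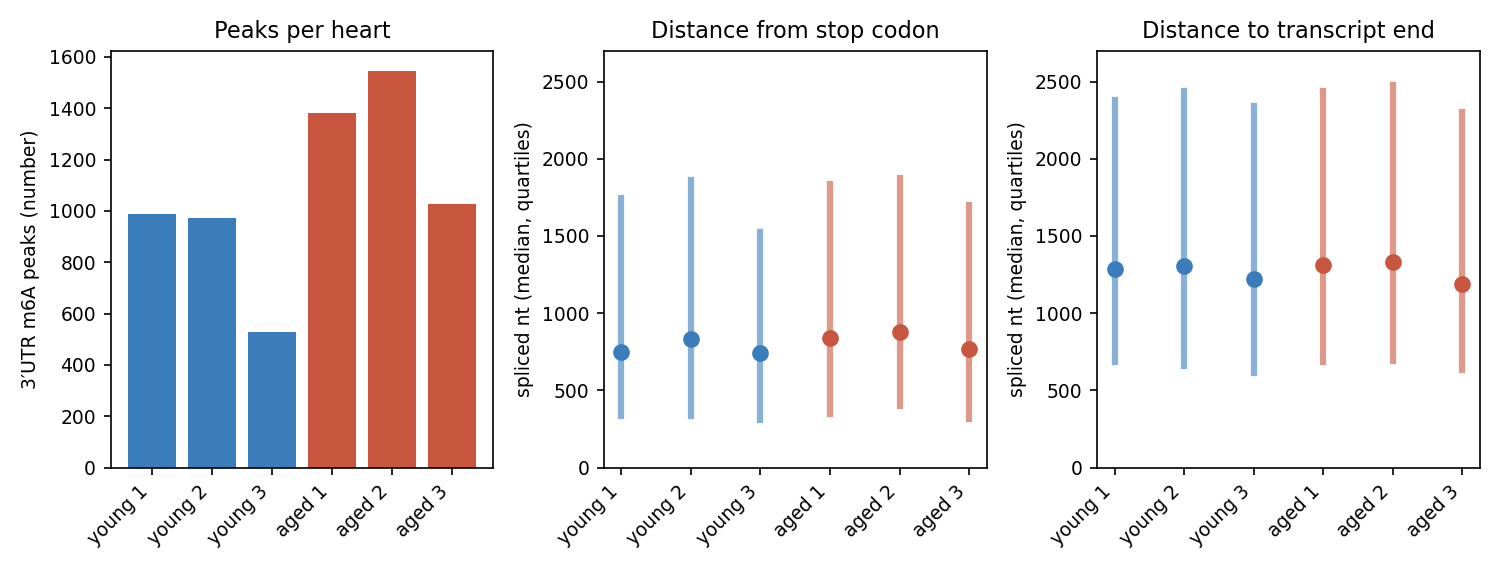
Number of 3′UTR m6A peaks in each of the 6 hearts (left, bars), and their distance in spliced nt from the stop codon (middle) and to the transcript end (right), where points are medians and lines run from the first to the third quartile. Aged hearts (red) hold 1029 to 1547 peaks and young hearts (blue) 529 to 989, while the medians of both distances overlap between the ages.

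Measured over all hearts, 3′UTR peaks lay a median of 820 nt after the stop codon and 1283 nt before the annotated transcript end. The median distance from the stop codon was 748, 832 and 743 nt in young and 841, 881 and 767 nt in aged hearts. The aged mean was 55.3 nt farther (830 against 774 nt, n = 3 each), and the values of the ages overlapped (exact permutation p = 0.2, adjusted p = 0.467). It was 29.7 nt without aged replicate 2, 84.2 nt without young replicate 2 and 86.7 nt without aged replicate 3. To the transcript end, the medians were 1283, 1304 and 1219 nt in young and 1315, 1331 and 1187 nt in aged hearts, a difference of 9 nt (exact permutation p = 0.9). Of 6 classes of distance from the stop codon, 1 separated the ages. Peaks 100 to 250 nt after the stop codon made up 18.1, 18.3 and 20.8% of the young and 16.7, 15.1 and 17.98% of the aged 3′UTR peaks (exact permutation p = 0.1, adjusted p = 0.6 over the 6 classes).

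Within the 3′UTR, peaks thinned out from the stop codon towards the transcript end. Cut into 3 equal parts, the first part of the 3′UTR held 43.3% of the peaks although it held 31.2% of the bases open to them, since the 100 nt next to the stop codon were left out by definition. The last of the 3 parts held 21.5% of the peaks and 34.4% of the bases. In each heart this last part held between 20.98 and 22.8% of the peaks, and the ages differed by 0.19 points (exact permutation p = 0.8). Of 10 equal parts, the second was the most used, with 16.2% of peaks on average, and the last the least, with 2.76%. Only 3.54 to 5.29% of a heart's 3′UTR peaks had their middle within 200 nt of the end. The shortage in the last of the 3 parts was present in every class of 3′UTR length: from 27.6% of peaks on 45.8% of bases in 3′UTRs under 500 nt, through 16.2% on 35.7% between 1000 and 2000 nt, to 22.6% on 33.8% over 4000 nt. These shares are descriptions of where peak middles fell on the chosen transcript. All bases up to the transcript end were counted as open. A peak that stays within the transcript cannot have its middle on the last bases. Part of the low shares near the end was therefore set in advance, most of all in short 3′UTRs.

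**Figure D2:**
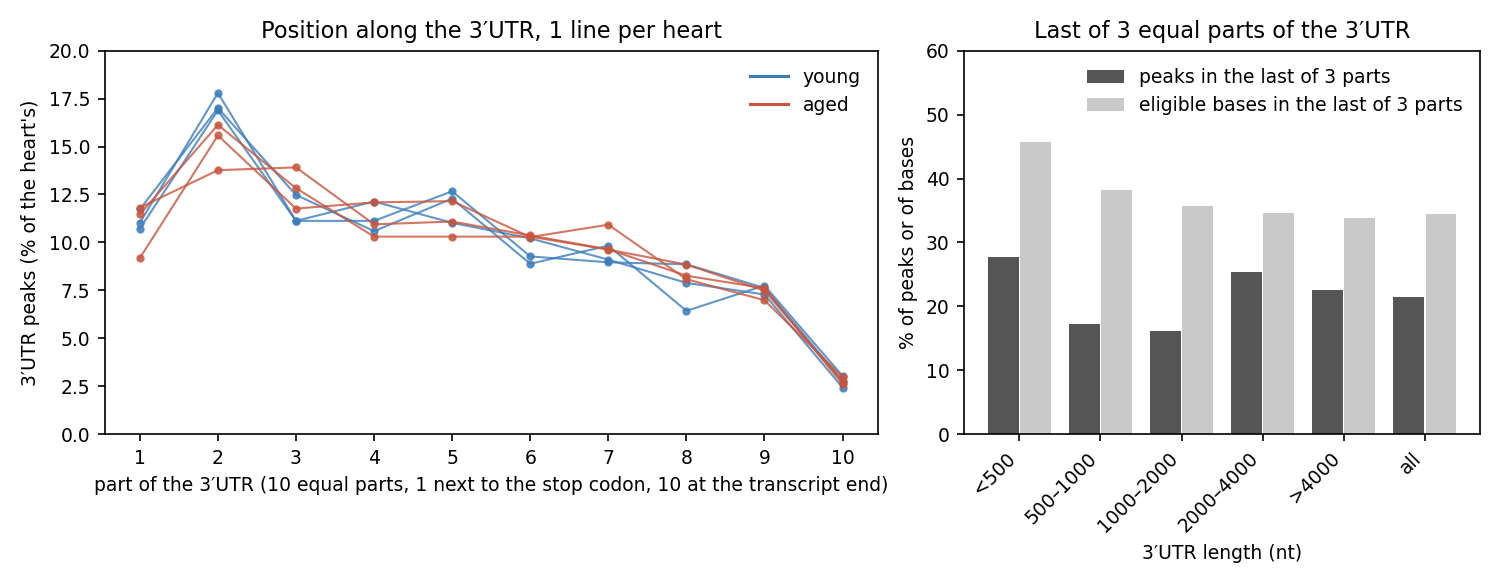
Left, percent of each heart's 3′UTR peaks in each of 10 equal parts of the 3′UTR from the stop codon (1) to the transcript end (10), with 1 line per heart (young blue, aged red). Right, percent of all 3′UTR peaks (dark bars) and of the bases open to them (light bars) that lie in the last of 3 equal parts of the 3′UTR, by 3′UTR length: the dark bar is the lower in each class, with 21.5 against 34.4% over all. All bases up to the transcript end were counted as open.

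Most of these peaks sat in the exon that carries the stop codon (94.6%), and 99.1% lay in the last exon. A single exon block made up 98.7 ± 0.300% of 3′UTR peaks per heart (SD, n = 6), against 40.1 ± 4.12% of peaks in the coding sequence. The limit of 100 nt cut through a continuous set: 414 peaks had their middle 51 to 100 nt after the stop codon and were left to the stop codon, and 397 lay 101 to 150 nt after it and were kept. A further 2.44% of 3′UTR peaks reached back over the stop codon with their 5′ end, and 2.34% had their middle in an exon of another gene on the same strand.

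Genes with a 3′UTR peak had long 3′UTRs, with a median of 2090 nt against 840.5 nt in the genes whose placed peaks all lay elsewhere and 697 nt in all coding genes. They made up 31.8% of the 6058 genes with a placed peak. Of the 1924 genes, 1114 (57.9%) also had a peak in the coding sequence, 325 (16.9%) at the stop codon, and 660 (34.3%) had no placed peak outside the 3′UTR. A 3′UTR peak was found in all 6 hearts for 257 genes and in a single heart for 756.

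In each heart the median 3′UTR peak was no longer than the median peak of the coding sequence and stood behind it in p-value. The median length of a 3′UTR peak was 181 nt in each heart, and that of coding-sequence peaks was 210, 181 and 210 nt in young and 211, 210 and 211 nt in aged hearts. The mean difference of -24.5 nt (3′UTR minus coding sequence) had the same direction in 5 of 6 hearts and was 0 in the other (exact sign-flip permutation test, p = 0.0625, adjusted p = 0.0833 over 4 within-heart comparisons). The p-value rank is the place of a peak in its own list, with 0% for the smallest p. The median 3′UTR peak stood at 54.6, 52.3 and 58.2% of the young lists and at 56.7, 55.9 and 55.0% of the aged lists, and the median coding-sequence peak between 45.7 and 47.0%. The 3′UTR median was the higher in 6 of 6 hearts, by 8.83 points on average (exact sign-flip permutation p = 0.031, the smallest that 6 hearts allow, adjusted p = 0.0625). Among peaks with p at or under 1e-05, this difference was 0.640 points (exact sign-flip permutation p = 0.25).

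Joining the peaks of all hearts gave 15699 regions, of which 2497 in 1813 genes were 3′UTR regions, meaning that most of their peaks were 3′UTR peaks. These held 96.5% of the 3′UTR peaks. A single heart supplied 1144 of them (45.8%), and 259 (10.4%) had a peak in all 6 hearts. Over all regions, 10.6% had a peak in all 6 hearts, so 3′UTR regions recurred about as often as the rest. The share of 3′UTR peaks that lay in regions of all 6 hearts differed from that of coding-sequence peaks by a mean of -1.22 points, with the sign changing between hearts (exact sign-flip permutation p = 0.594). Regions of all 6 hearts lay a median of 780 nt after the stop codon, and those of a single heart 869 nt.

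In 56 of 2497 3′UTR regions (2.24%) all 3 aged hearts and no young heart had a peak, against 2.68% of all regions. No 3′UTR region had a peak in all 3 young and no aged heart, against 7 or 0.0446% of all regions. With at least 2 hearts of one age and none of the other, the numbers were 291 for aged (11.7%) and 19 for young (0.761%), against 11.7 and 1.11% of all regions. The aged shares of 3′UTR regions were thus near those of all regions. With the same number of best peaks per heart, 13 3′UTR regions (1.09%) belonged to all 3 aged hearts alone and 7 (0.588%) to all 3 young hearts alone, against 1.14 and 0.561% of all regions, and the less strict numbers became 49 (4.12%) and 47 (3.95%). Over all regions they became 430 (5.02%) and 325 (3.8%), so that with lists of equal length an excess of aged regions was left there. In both sets the imbalance was smaller with lists of equal length.

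**Figure D3:**
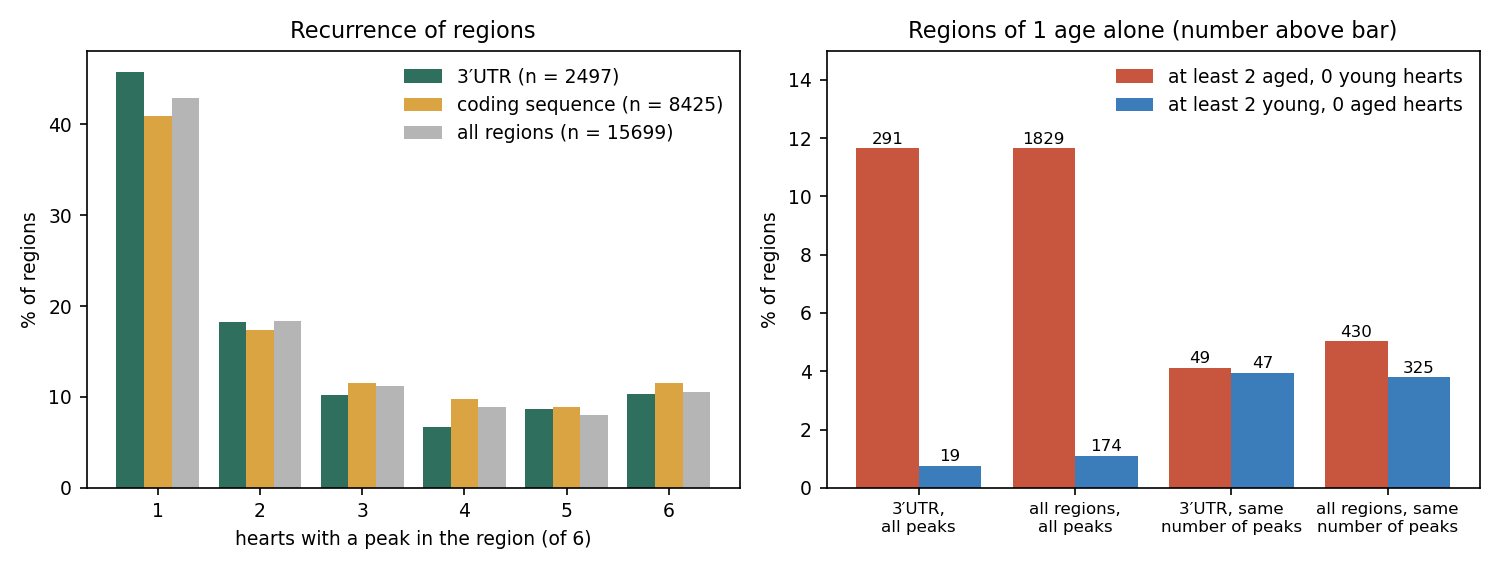
Left, percent of regions with a peak in 1 to 6 hearts, for 3′UTR regions (green), coding-sequence regions (yellow) and all regions (grey). Right, percent of 3′UTR regions and of all regions with a peak in at least 2 hearts of one age and none of the other, with the number above each bar: 291 aged and 19 young 3′UTR regions and 1829 and 174 of all regions with all deposited peaks, and 49 and 47 and 430 and 325 with the same number of best peaks per heart.

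Across the 259 regions of all 6 hearts, the 12 with the best weakest peak belonged to 11 genes. Zbtb20, a zinc-finger repressor of transcription with a 3′UTR of 23858 nt, held the first 2 of them, 11192 and 16956 nt after the stop codon. Their p-values were listed as 0 in all 6 hearts, which put both between 0.458 and 0.886% of each list. Pcp4l1, a small protein related to the calmodulin-binding PCP4, followed with a region 176 nt after the stop codon, ranked 0.707, 0.886 and 0.766% in young and 1.08, 0.528 and 0.529% in aged hearts. Others were in Rnf150, a RING-finger protein (4596 nt), Gpatch8, a G-patch protein (406 nt), and Glg1, a glycoprotein of the Golgi (377 nt). Cdh5, the VE-cadherin of endothelial junctions, had its region 545 nt after the stop codon, and Hlf, a PAR bZIP transcription factor, 500 nt after it. Atp11a, a phospholipid flippase, Des and Jcad, a protein of endothelial junctions, were also in the set. None of the 12 ranked beyond 3.50% in any heart. They were chosen by their weakest rank over all 6 hearts, so a place near the head of every list at both ages follows from that choice.

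Des encodes desmin, the intermediate filament that ties Z-discs together. Its region lay 189 nt after the stop codon and ranked 0.707, 3.14 and 1.58% in young and 1.07, 0.528 and 1.83% in aged hearts. The values of the ages overlapped.

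The 10 best regions of the 3 aged hearts alone were ranked much lower in the lists. Plpp3, a phosphatase of bioactive lipids, led with ranks of 22.3, 18.5 and 18.7% in the aged hearts, 1131 nt after the stop codon. Xylt1, which starts the sugar chains of proteoglycans, ranked 32.2, 20.3 and 28.7%. Hpcal1, a neuronal calcium sensor protein, ranked 13.7, 33.8 and 21.8%, 194 nt after the stop codon, and no other peak of its gene was listed in any heart. The remaining regions were in 1110002E22Rik, Gnb1 (a G protein beta subunit), Rgp1 (a partner of a Rab activator), Fgf1 (a fibroblast growth factor), Snhg11 (a snoRNA host gene), Rhoj (a small GTPase of endothelium) and Eif5b (a translation initiation factor), with weakest ranks from 40.8 to 59.1%. Peaks elsewhere in the gene were listed in young hearts for Plpp3 (4 peaks), 1110002E22Rik (7 peaks), Gnb1 (1 peak), Rgp1 (3 peaks), Fgf1 (2 peaks), Rhoj (2 peaks) and Eif5b (7 peaks), so these transcripts gave peaks in young hearts too. When each list was held to its 4114 best peaks, 6 of these 10 regions kept a peak in all 3 aged hearts. The regions were chosen by their ranks in the aged hearts, so this number follows from that choice and is no separate support.

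**Figure D4:**
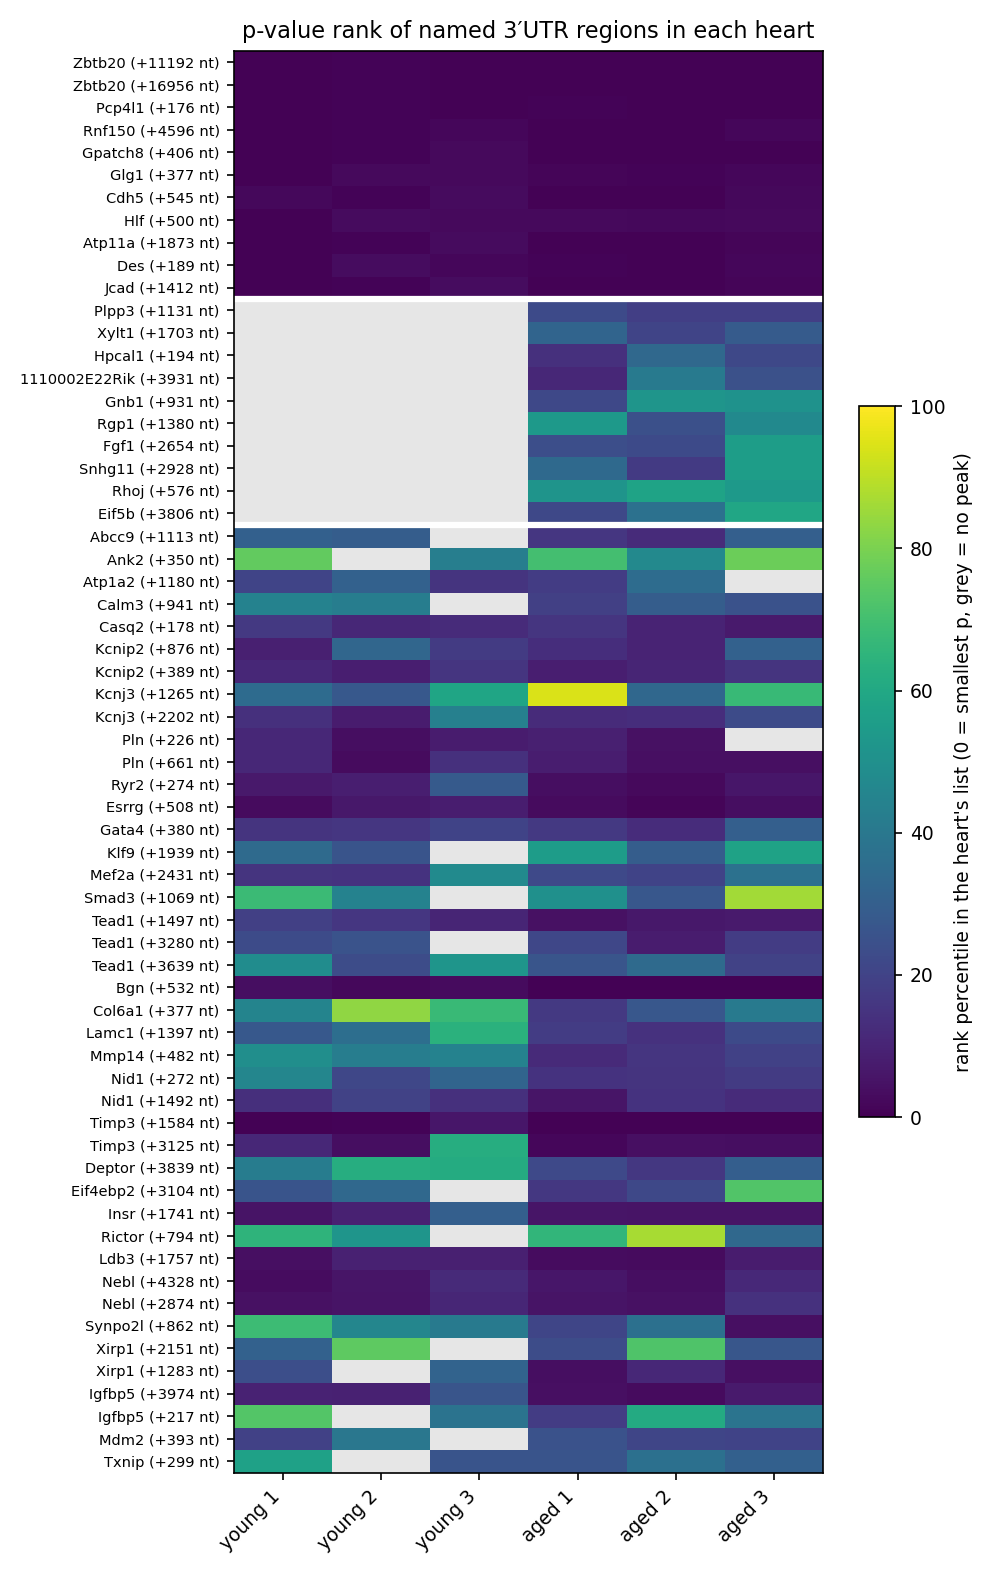
Rank percentile of the peak p-value within each heart's own list (dark is the smallest p, grey is no peak) for 11 of the 12 best 3′UTR regions of all 6 hearts (top block), the 10 best of the 3 aged hearts alone (middle) and the regions of the gene lists with a peak in at least 5 hearts (bottom). Labels give the gene and the distance after the stop codon. The top block stays within 3.50% in every heart, and the middle block reaches ranks up to 59.1%.

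Few genes carried several recurrent 3′UTR regions. Among 1085 genes with a 3′UTR region in at least 2 hearts, 891 (82.1%) had 1 such region and 147 (13.5%) had 2. Zbtb20 had 16, spread from 212 to 21648 nt after the stop codon, with 9, 10 and 5 3′UTR peaks in the young and 15, 21 and 10 in the aged hearts. Tead1, the TEA-domain factor that pairs with YAP, had 6 over a 3′UTR of 8147 nt, and Ccdc127 and Klf3, a Krüppel-like repressor, had 5 each. Akap6, the anchor of protein kinase A at the nuclear envelope of muscle cells, Igfbp5, a binding protein of insulin-like growth factors, and Adgrf5, an adhesion receptor of endothelium, had 4 each.

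The regions of all 6 hearts farthest from a stop codon were 4 of Zbtb20, up to 21648 nt away, and 1 of Lpp, a LIM protein of focal adhesions, 12926 nt away and 331 nt before the transcript end. Those nearest to the transcript end were in Synpo2l, a Z-disc protein (21 nt), Antxr2, a collagen-binding receptor (42 nt), Kmt5a, a histone methyltransferase (46 nt), Mmp14, a membrane-bound matrix protease (112 nt), and Hadh, an enzyme of fatty acid oxidation (150 nt). The 3′UTR of these 5 genes on the chosen transcript was 262 to 883 nt long, so that a peak close to the end was also within 862 nt of the stop codon. The regions in Synpo2l, Antxr2, Kmt5a and Mmp14 had 300, 270, 331 and 301 exon bases and reached beyond the chosen transcript. Their distances are to the annotated end of that transcript, and which transcript ends were in use was not tested.

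For a wider view, 9 gene lists were read for 3′UTR peaks, beside a share of 29.5% among all 6512 coding genes with any peak. The share was 51.5% (17 of 33 genes) for calcium handling and ion channels, 53.8% (21 of 39) for cardiac transcription and metabolic regulators, 50% (10 of 20) for senescence and stress response, 48.3% (14 of 29) for insulin, PI3K, AKT and mTOR signalling and 47.2% (17 of 36) for extracellular matrix. Sarcomere and Z-disc genes stood at 30% (9 of 30), the m6A machinery at 21.4% (3 of 14) and nuclear genes of oxidative phosphorylation at 7.41% (2 of 27). No cytosolic ribosomal protein gene of the 36 with a peak had one in the 3′UTR. The lists also differed in the room for a 3′UTR peak: their median 3′UTR length was 1569, 1625, 1344.5, 3248 and 879.5 nt for the first 5, and 282, 1344, 216 and 89 nt for the others. The part of 3′UTR length in these shares was not tested.

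Of the calcium and ion channel genes, 5 had a 3′UTR region in all 6 hearts. Ryr2, the calcium release channel of the sarcoplasmic reticulum, had it 274 nt after the stop codon with ranks of 6.78, 8.41 and 28.2% in young and 3.56, 2.36 and 6.24% in aged hearts. All aged values were lower, that is better ranked, than all young values. Pln, phospholamban, the inhibitor of the calcium pump SERCA, had a region 661 nt after the stop codon with ranks of 10.9, 2.89 and 14.1% in young and 8.12, 4.17 and 3.96% in aged hearts, which overlapped. Its region 226 nt after the stop codon was found in 5 hearts. Casq2, the calcium buffer calsequestrin, was ranked 16.6, 11.03 and 12.3% in young and 15.3, 9.84 and 7.40% in aged hearts. Kcnip2, a subunit of the transient outward channel, and Kcnj3, a G protein-gated potassium channel, had 2 regions each in all 6 hearts.

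Transcription factors with a 3′UTR region in all 6 hearts were Esrrg, an orphan receptor of energy metabolism, Gata4, Mef2a and Tead1. Esrrg was ranked 3.03, 6.33 and 8.19% in young and 2.90, 1.25 and 3.57% in aged hearts, which overlapped. Gata4 was ranked 14.9, 15.97 and 19.97% in young and 16.7, 12.76 and 30.5% in aged hearts, also with overlap. In the sarcomere list, Des, Ldb3 and Nebl (both of the Z-disc) and Synpo2l had one in all 6 hearts. In Synpo2l the rank ran from 68.5, 46.0 and 41.1% in young to 20.9, 36.9 and 4.22% in aged hearts, without overlap.

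The extracellular matrix list had 6 genes with such a region, and in all 6 a 3′UTR region was better ranked in every aged heart than in any young heart. Bgn, the proteoglycan biglycan, was ranked 3.57, 2.12 and 3.00% in young and 0.458, 0.528 and 0.529% in aged hearts, where its p-values were listed as 0. Col6a1, a collagen VI chain, was ranked 45.2, 83.5 and 67.6% against 16.6, 27.0 and 40.8%, and Lamc1, a laminin chain, 27.5, 36.0 and 63.8% against 17.8, 14.4 and 22.5%. Mmp14, described above near the end of the chosen transcript, was ranked 49.4, 42.6 and 44.1% in young and 12.02, 15.3 and 19.2% in aged hearts. Another was the region of Nid1, a basement membrane protein, 272 nt after the stop codon, while its region 1492 nt after it overlapped between the ages. For Timp3, an inhibitor of metalloproteinases, it was the region 1584 nt after the stop codon. This had p-values listed as 0 in all aged hearts and in young replicates 1 and 2. Against these 2 young hearts its ranks were thus tied at the head of the lists. They differed only with the length of the lists and the number of zeros in them. The Timp3 region 3125 nt after the stop codon overlapped between the ages. Peaks were found on 3, 3 and 1 of 8 fibroblast markers in young and on 4, 3 and 4 in aged hearts, with none on Tcf21 in any list, and their part in these ranks was not tested.

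Such a separation in ranks was common, and the aged lists were also the longer ones. Over all regions of all 6 hearts, 19.9% (331 of 1663) were better ranked in every aged than in any young heart and 0.902% (15) the reverse. Among the 3′UTR regions of all 6 hearts it was 59 of 259 (22.8%) and 0, with a median difference of -6.40 percentile points (aged minus young). In the extracellular matrix list it was 6 of 8 regions, with a median difference of -20.1 points beside -6.60 over all regions. The other gene lists were not counted in this way, so the separation is not shown to be particular to matrix genes. Regions of Deptor, Igfbp5 (3974 nt after the stop codon) and Tead1 (1497 nt) were separated in the same direction. Those of Insr and Tead1 (3639 nt) overlapped between the ages. In a count added after the values were seen, which leaves out separated regions with a p-value of 0 in hearts of both ages, whose ranks there differ only with list length and the number of zeros, there were 290 (17.4%) of all regions, 55 (21.2%) of 3′UTR regions and 5 in the extracellular matrix list. No region was tested alone, since an exact test of 3 against 3 hearts cannot go below p = 0.1. A rank can move with the abundance of a transcript as well as with its methylation, and which of these moved with age was not tested.

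Of insulin and mTOR signalling, Insr, the insulin receptor, and Deptor, an inhibitor of mTOR, had a 3′UTR region in all 6 hearts, and of the senescence list Igfbp5 had one. Few genes of the m6A machinery had a 3′UTR peak. Alkbh5, the demethylase, had a region in 1 young and 1 aged heart and another in 1 young heart, Hnrnpa2b1 in 1 aged heart, and Hnrnpc in 1 young heart at each of 2 places. No listed writer had a 3′UTR peak in any list.

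Within 3′UTR peaks, GGAC occurred 3.40, 3.15 and 3.75 times per kb in young and 3.26, 3.12 and 3.61 times in aged hearts. In the rest of the same 3′UTRs, outside any peak, it occurred 2.71, 2.70 and 2.76 times per kb in young and 2.87, 2.78 and 2.85 times in aged hearts. Peaks were denser in 6 of 6 hearts, by 0.603 per kb on average, or 1.22 times (exact sign-flip permutation p = 0.031, adjusted p = 0.0625). The hearts share many of their peaks, so they are not independent samples of sequence. The ages differed by -0.107 per kb (aged minus young, exact permutation p = 0.6). Among the 12 arrangements of the same letters GGAC had the highest ratio, and the other 11 ran from 0.937 to 1.21. GGACT reached 1.26 times, and the poly(A) signal AATAAA was less frequent in peaks (0.612 per kb) than in the rest (0.946 per kb).

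The excess of GGAC was shallow. In windows of 181 nt, the median peak length, GGAC was found in 43.2 ± 2.75% of those centred on 3′UTR peaks and in 38.3 ± 0.615% of those outside peaks (SD, n = 6 hearts). Its density was 3.67 ± 0.322 per kb 150 to 200 nt upstream of the peak middle and 2.59 ± 0.281 per kb 250 to 300 nt downstream. Farther out it was 3.09 ± 0.311 per kb 550 to 600 nt upstream and 2.64 ± 0.157 per kb 550 to 600 nt downstream. The lean upstream thus reached the ends of the profile. With a limit of 50 nt after the stop codon the excess over the rest was 0.741 per kb, and with 200 nt 0.412 per kb. The part of position along the 3′UTR in this excess was not tested. GGAC density did not follow how often a region recurred: peaks of regions in 1 heart held 3.17 GGAC per kb and those of regions in all 6 hearts 3.43 per kb, with 2.82 per kb in regions of 5 hearts. Peak lengths differed along this series, with medians from 151 to 241 nt. The base after GGAC in the 2497 regions was A in 38.1%, T in 33.1%, C in 23.1% and G in 5.71% of 1821 occurrences, and 46.1% of regions held at least 1 GGAC.

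Over all 256 tetramers, GGAC came 13th by its ratio between 3′UTR peaks and the rest of their 3′UTRs. ACAC led with 6.63 ± 0.613 per kb in peaks and 4.41 ± 0.0693 in the rest (1.501 times), followed by CACA (1.36 times). Places 3 to 12 were held by tetramers with CG, from CGCG (1.358 times, 0.283 per kb in peaks) to CTCG (1.22 times). Windows of 181 nt on peaks held 45.3 ± 0.758% G or C, and those outside 44.0 ± 0.299%, with peaks higher in 6 of 6 hearts. The part of base composition in these ratios was not tested. These comparisons of tetramers and tracts were added after their values were seen and are given without a test. In the best-ranked of 5 equal classes of each list ACAC (1.67 times) and CACA (1.51 times) again led, before CGTC (1.4997 times) and ACGC (1.497 times). The pyrimidine tetramers CTTC (1.495 times) and CCTC (1.47 times) came 5th and 6th, and GGAC came 69th (1.11 times). Both ACAC and CTTC were denser in peaks of 6 of 6 hearts there.

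A pyrimidine tract, defined as 25 bases with at least 22 C or T, was found in 17.3 ± 1.31% of the 181-nt windows on 3′UTR peaks of the best-ranked class, between 15.9 and 19.0% in the single hearts. Outside peaks it was found in 10.3 ± 0.125% of windows, between 10.1 and 10.4%. No heart overlapped. The next class held it in 13.1 ± 1.78% and the other 3 classes in 10.6 to 10.8%, near the windows outside peaks. The repeat ACACACAC was found in 2.59 to 4.05% of peak windows by class and in 1.52 ± 0.125% of windows outside, with no order by rank. By contrast, the share of windows with GGAC ran from 41.3 to 45.3% over the 5 classes and was 41.3% in the best-ranked class. Of the strongest regions printed above without GGAC, those of Zbtb20, Pcp4l1, Gpatch8, Hlf and Des each held a tract by this definition, with 22 to 25 pyrimidines of 25. Tracts were not limited to regions without GGAC: among those printed with GGAC, the regions of Zbtb20 and Ryr2 held one with 25 pyrimidines, those of Glg1, Atp11a and Gata4 with 23 and those of Cdh5 and Casq2 with 22, whereas Rnf150 reached 21 and Plpp3 and Hpcal1 20. The tracts of printed regions were sought over whole regions of 239 to 836 exon bases, all longer than the 181-nt windows. The window shares are therefore no base rate for them, and the share of all 3′UTR regions with a tract was not counted. The windows were of fixed length, but on peaks shorter than 181 nt they also took in bases beside the peak. The part of peak length in the window shares was not tested. Transcript abundance may enter the ranks, and its part was not tested either.

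**Figure D5:**
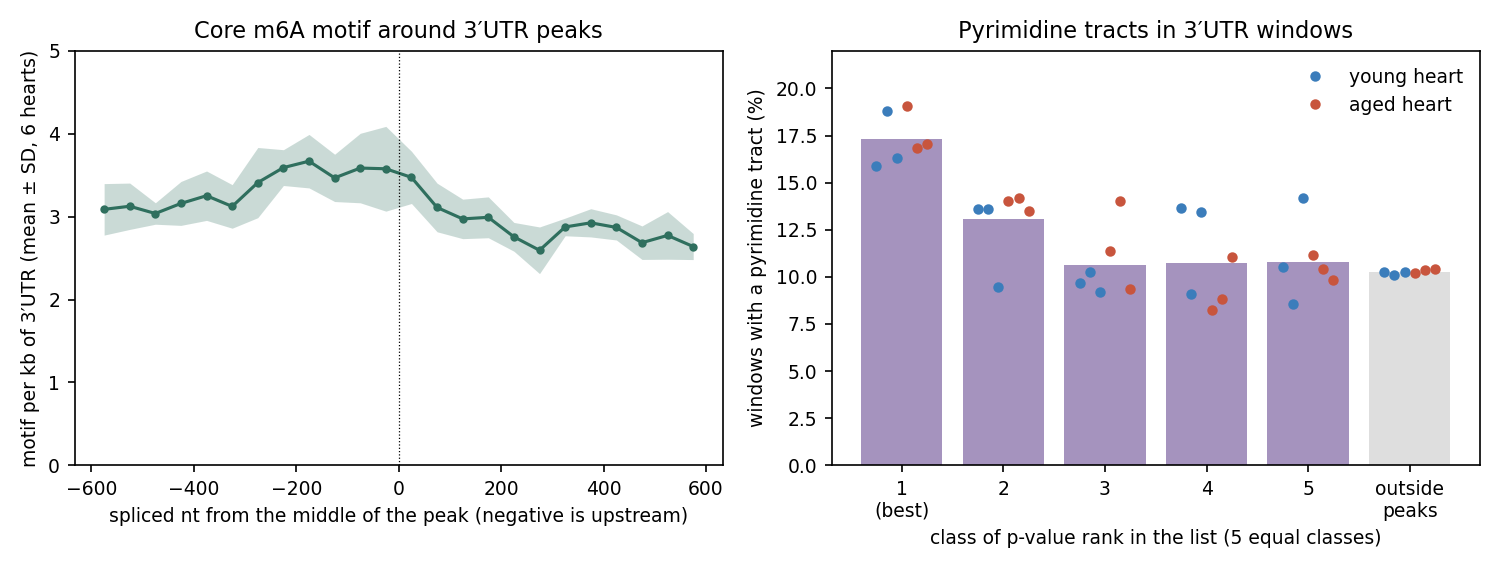
Left, GGAC per kb of 3′UTR against the distance from the middle of 3′UTR peaks in bins of 50 nt (mean of 6 hearts, band ± SD), with 3.67 per kb at -200 to -150 nt and 2.59 at 250 to 300 nt. Right, percent of 181-nt windows with a pyrimidine tract (at least 22 of 25 bases C or T) on 3′UTR peaks by class of rank in their list (5 equal classes) and in 3′UTR windows outside peaks, where bars are means over the 6 hearts and points are hearts: 17.3% in the best-ranked class and 10.3% outside.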

How the data were processed

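Hearts of young and aged mice gave 12 libraries and 6 peak lists. The authors fragmented RNA to 100 to 200 nt, trimmed reads with cutadapt (version 2.5), aligned them to GRCm38 with HISAT2 (version 2.1.0) and called peaks in each heart against its input with exomePeak at a cutoff of 0.05 without a limit on the false discovery rate. HOMER (version 4.10.4) is named in the submitters' processing notes. The deposited value of each peak is a p-value, which is unadjusted and served here to order or select the peaks of 1 heart. It was listed as 0 for 76 3′UTR peaks. Lists were not normalized to each other.

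Positions were computed on GENCODE M21 with Python (version 3.11.15) and numpy (version 2.4.6), and the stop codon was checked in the sequence of all 1924 transcripts with a 3′UTR peak. Of the gene identifiers, 7 were not in the annotation. A region joined peaks sharing at least 1 exon base. Ages were compared on 1 value per heart by two-sided exact permutation over 20 assignments, and features by two-sided exact sign flips over 6 hearts, with Benjamini-Hochberg adjustment over families of 7 and 4, and procedures were tested on simulated data. The groups are those of the sample titles. Members, gene lists and tests were chosen with earlier results of these data known.

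Named were the 12 regions of all 6 hearts with the best weakest peak, the 10 best of 3 aged and 0 young hearts (and up to 5 of the reverse), the 8 genes with most regions in at least 2 hearts, the 5 regions of all 6 hearts farthest from the stop codon and the 5 nearest to the transcript end, list genes with a region in at least 5 hearts (here described when in all 6), and m6A regulators. Alternatives were p at or under 1e-05, 4114 peaks per heart, limits of 50 and 200 nt, the transcript with the longest 3′UTR, peaks outside other genes, each heart left out, means, other motifs or peak parts, joining at 50% overlap and the replicate number as a block. Same-numbered young and aged hearts did not deviate together (correlations from -0.0372 to -0.0025), so the main tests have no block. No sequences of chromosome 18 are shown, and 1 of the 12 regions and 1 of the 8 genes are not reported here.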

Additional observations from a re-analysis of the deposited data

Results flagged for a closer look

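In the difference of median peak length between 3′UTR and coding-sequence peaks, young replicate 2 stood apart, with a difference of 0 nt while the other hearts had -30 to -29 nt. Of 4 within-heart differences tested in this way over 6 hearts, 1 was marked, and chance marks about 1 in 20.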

How the results depend on the processing

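Over 14 results and 189 recalculations, 136 were kept, 20 changed direction and 16 counts moved by over 1.5 times. Another 14 fell short of the threshold and 3 passed it. For tested results, kept means the same direction and side of the threshold. For numbers of regions, which have no p-value, it means a change of at most 1.5 times. In comparisons of the ages no exact permutation p can be below 0.1, which is above the threshold. Their side of it was thus fixed in advance, and only their direction could change. The higher numbers of peaks and of genes and the larger distance from the stop codon in aged hearts kept their direction under each alternative run, except the number of genes with the same number of best peaks per heart (-46.3). The number of 3′UTR peaks was not compared with the same number of best peaks per heart. With that setting the aged minus young difference was -1.33 points in the 3′UTR share and -9.17 nt in the distance to the end, 3′UTR minus coding-sequence peaks gave -15.5 nt in length, 2.41 points in rank and 1.67 points in recurrence, and 13 regions were of the 3 aged and 7 of the 3 young hearts alone. At p at or under 1e-05 these values were -0.214 points (share), -52.5 nt (end), -15.6 nt (length) and 0.640 points (rank), with 32 regions of aged, 1 of young and 158 of all 6 hearts. The share gave -0.111 points from 50 nt after the stop codon on and -0.250 points on the transcript with the longest 3′UTR. Without peaks in exons of other genes the distance to the end gave -12.3 nt, from 200 nt on the last of the 3 parts gave -0.201 points, and means in place of medians gave -29.0 nt in length. The difference in distance from the stop codon was 32.2 nt from 200 nt on, 29.7 nt on the transcript with the longest 3′UTR and 105 nt as a mean.

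Leaving out each heart gave ranges of 339 to 634 (peaks), 213 to 426 (genes), 29.7 to 86.7 nt (stop codon), -1.70 to 1.90 points (share), -17.7 to 54.3 nt (end), -0.408 to 0.503 points (last of the 3 parts), -0.250 to 0.0519 GGAC per kb between the ages, and -2.36 to 1.58 points (recurrence). The rank difference ran from 8.09 to 9.48 points and the GGAC excess over the rest from 0.523 to 0.659 per kb, both short of 0.05 since 5 hearts allow no exact sign-flip permutation p below 0.0625. Regions of the aged hearts alone numbered 60 to 190 (107 without young replicate 1, and 105, 106 and 190 without aged replicates 1, 2 and 3), of the young hearts alone 1 to 13 (13 without young replicate 3) and of all remaining hearts 266 to 405 (405 without young replicate 3, the shortest list). These rise because fewer hearts must hold a peak or must lack one. The GGAC excess kept its direction with GGACT, in the central 100 nt and, chosen after seeing the data, as a mean over transcripts. With the replicate number as a block (sign flips over 3 pairs), the difference in 3′UTR peaks was 489 (exact permutation p = 0.25). As 3 pairs allow no exact sign-flip permutation p below 0.25, the block could not change a call. The number of lists and the unknown depth limit the precision.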

Other observations

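Of the 5635 peaks whose middle fell on no exon of the transcript with the longest coding sequence, 952 (16.9%) lay more than 100 nt after the stop codon on the transcript of the same gene with the longest 3′UTR. These were not counted among the 6445.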
